A study of Arabidopsis thaliana with 3 samples.

Results

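The 4 defence genes of Arabidopsis thaliana leaves described here were compared between plants that overexpress the transcription factor WIN1 and a control. They are CHI (AT2G43570, a putative chitinase), LCR67 (AT1G75830, the plant defensin also called PDF1.1), THI2.1 (AT1G72260, a thionin) and AT2G34930 (a leucine-rich repeat protein). The members were taken as every probe set that the array annotation pairs with 1 of these 4 genes, which gave 6 probe sets of 8247. THI2.1 was read by 3 of them and each other member by 1. The annotation names 3592 genes by a probe set paired with no other gene. CHI, LCR67 and AT2G34930 were chosen because their ratios had been noticed, so their differences between arrays are a description and carry no test. THI2.1 was not chosen for its ratio.

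Chitinases are enzymes that cut chitin, the polymer of fungal cell walls, and several are counted among the pathogenesis-related proteins of plants. Plant defensins and thionins are small secreted proteins held in shape by disulphide bridges, and members of both families inhibit fungi or bacteria in culture. THI2.1 is known as a jasmonate-responsive gene in Arabidopsis, and LCR67 is known mainly from seeds. Leucine-rich repeats are the recognition surface of many plant immune receptors and of inhibitors of microbial enzymes.

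RNA was measured on 3 Affymetrix Arabidopsis genome arrays, which report 1 intensity for each probe set (several short probes that read the same transcript). One array held leaf RNA of 35S:WIN1 line 13 and another that of 35S:WIN1 line 22, each pooled from several T2 plants. The third held pooled leaf RNA of control plants that carried the empty binary vector, which the sample title calls a WT control. The 35S promoter is active in most tissues, so the design does not restrict WIN1, an AP2/ERF factor known for its effect on leaf surface lipids, to the epidermis. The sources used here give neither the age nor the ecotype of the plants.

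The arrays were brought to a common level before they were compared, because their medians as deposited differed (70.2 for line 13, 35.2 for line 22, 84.1 for the control). A scaled intensity is the deposited one after that step. All log2 ratios are of scaled intensity plus a pseudocount of 18.6, which makes ratios of dim probe sets too small, and 5773 probe sets were bright enough on average to be kept. Both ratios use the same control array, so their spread (SD, n = 2 lines) leaves out the error of the control. The ratios of line 22 were wider than those of line 13, with an SD over kept probe sets of 0.936 against 0.401. Of 9 listed leaf photosynthesis genes, 5 were read, by 7 probe sets whose lowest scaled intensity was 522.8 (line 13), 620.1 (line 22) and 543.7 (control). Such values cannot tell leaf from other green tissue, so they do not check the leaf origin. Their summed scaled intensity was 12599 (line 13), 20295 (line 22) and 12953 (control). Before scaling, RCA, SBPASE, LHCB4.1 and PRK each read lower in line 22 than in the control. For LHCB4.1 the deposited values were 3183.29 (line 22) and 4054.5 (control). After scaling all of these genes were higher in line 22, so the direction of their difference depends on the scaling. PSAE-1 was mixed before scaling, with a probe set higher in line 22 (2483.05 against 2397.62) and the others lower. The part of this difference in the results on line 22 was not tested. No listed marker of seed, flower or root was matched to a probe set, and neither was the WIN1 locus, so these were not analysed here. In leaf RNA, fewer cells that express a gene and less RNA per cell cannot be told apart.

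CHI was lower in both WIN1 lines than in the control. Its probe set 17840_at read 215.8 on the array of line 13, 117.6 on that of line 22 and 548.1 on that of the control. These scaled intensities all lay well above the pseudocount, and the control was the highest array, 2.54 times line 13 and 4.66 times line 22 on the linear scale. The log2 ratio was -1.27 in line 13 and -2.06 in line 22, with a mean of -1.67 ± 0.554 (SD, n = 2). A ratio at least 2-fold lower in both of the lines was found in 0.554% of kept probe sets, and CHI was chosen from among these. Its ratio had rank 35 from the lowest of 5773 in line 13 and rank 205 in line 22. Line 22 had many more low ratios, since 16.4% of kept probe sets were at least 2-fold lower there against 1.25% in line 13. CHI stayed at least 2-fold lower in both lines under each scaling and pseudocount tried.

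AT2G34930, the leucine-rich repeat protein, was higher in both WIN1 lines. Its probe set 12251_at read 157.6 on the array of line 13, 107.3 on that of line 22 and 28.9 on that of the control. Line 13 was the highest array, and the control lay close above the pseudocount. On the linear scale the level was 5.45 times that of the control in line 13 and 3.71 times in line 22. The log2 ratio was 1.89 in line 13 and 1.41 in line 22, with a mean of 1.65 ± 0.343 (SD, n = 2). Ratios at least 2-fold higher in both lines were found in 0.866% of kept probe sets, and AT2G34930 was chosen from among these. It had rank 14 from the highest in line 13, where 1.49% of kept probe sets were at least 2-fold higher, and rank 163 in line 22, where 7.38% were. The 2-fold difference in line 22 ended on the deposited values without scaling, where the log2 ratio was 0.79, and with a pseudocount at the 40th percentile, where it was 0.93.

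**Figure D1:**
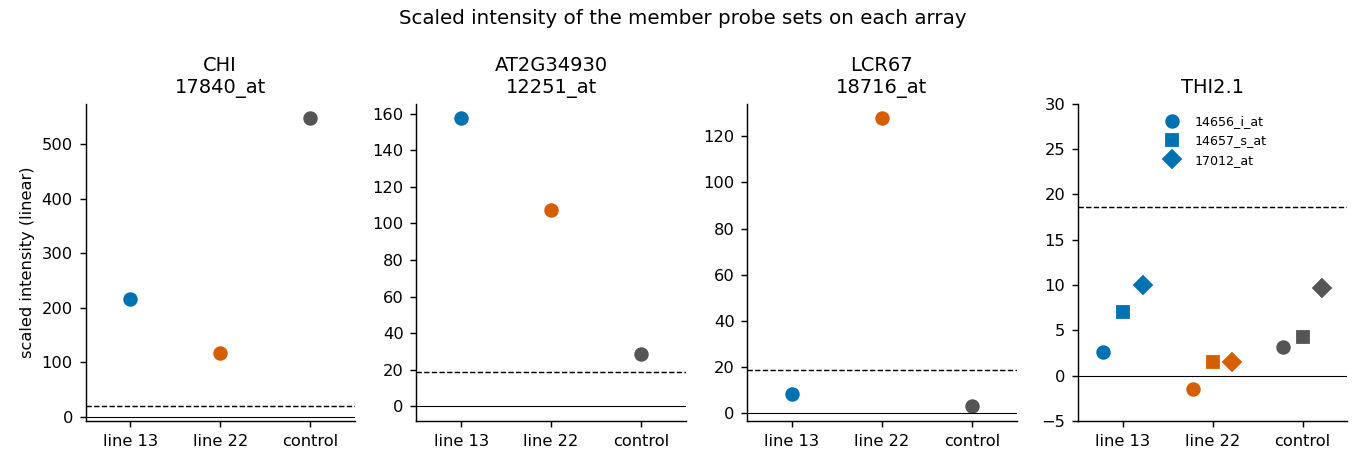
Scaled intensity (linear, y axis) of each member probe set on the arrays of line 13 (blue), line 22 (orange) and the empty-vector control (grey), 1 point per array and probe set, with the pseudocount of 18.6 dashed. CHI was highest in the control at 548.1, AT2G34930 was lowest there at 28.9, LCR67 lay above the dashed line in line 22 alone at 127.9, and the 3 THI2.1 probe sets stayed under it on every array.

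LCR67, the defensin, was read above the pseudocount on the line 22 array alone. Its probe set 18716_at read 8.1 on the array of line 13, 127.9 on that of line 22 and 2.8 on that of the control. The WIN1 lines thus lay apart, and line 13 was under the pseudocount together with the control. The probe set was kept only through its value in line 22. The log2 ratio was 0.32 in line 13 and 2.77 in line 22, with a mean of 1.55 ± 1.74 (SD, n = 2), so the spread between the lines was larger than the mean. In line 22, 7.38% of kept probe sets were at least 2-fold higher than in the control. Line 22 exceeded line 13 by 2.45 on the log2 scale, and 6.6% of kept probe sets were at least 2-fold higher in line 22 than in line 13. The size of this ratio depends on the pseudocount, since the other values lay under it. It was 3.44 with a pseudocount at the 5th percentile and 1.5 with one at the 40th.

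LCR67 has 1 paired probe set, and other genes show how far a single high value in line 22 was shared. There were 108 genes with more than 1 kept probe set. In line 22, 31 of their 228 probe sets were at least 2-fold higher than in the control, against 7.38% of all kept probe sets. For 4 of these 31 the mean of the gene's other probe sets was also at least 2-fold higher, and for 15 it was higher at all. In line 22, 50 of the 228 were at least 2-fold lower, against 16.4% of all kept probe sets. Of these 50, the other probe sets were also at least 2-fold lower for 8 and lower at all for 31. In line 13 only 1 of the 228 was past 2-fold in either direction, against 1.49% of all kept probe sets higher and 1.25% lower. CHI and AT2G34930 could therefore not be set against such a count there. CHI, AT2G34930 and LCR67 each have no second probe set in the annotation used here.

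THI2.1, the thionin, was not detected above the pseudocount on any array. Probe set 17012_at read 10 on the array of line 13, 1.5 on that of line 22 and 9.7 on that of the control. Probe set 14657_s_at had 7.0, 1.5 and 4.3 on the same arrays, and its suffix marks probes that similar transcripts may share. For probe set 14656_i_at the values were 2.6 (line 13), -1.5 (line 22) and 3.2 (control), so that of line 22 lay below 0. All 3 probe sets were therefore too dim to be kept, and no fold is given. Their mean log2 ratio was 0.04 in line 13 and -0.31 in line 22. Without the filter on dim probe sets, limma (Benjamini-Hochberg over all 8247) gave each of the 3 an adjusted p of 1. That fit called 0 of the 8247 at an adjusted p of 0.05, so it says nothing particular to THI2.1. A gene this dim could not be shown to be unchanged.

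**Figure D2:**
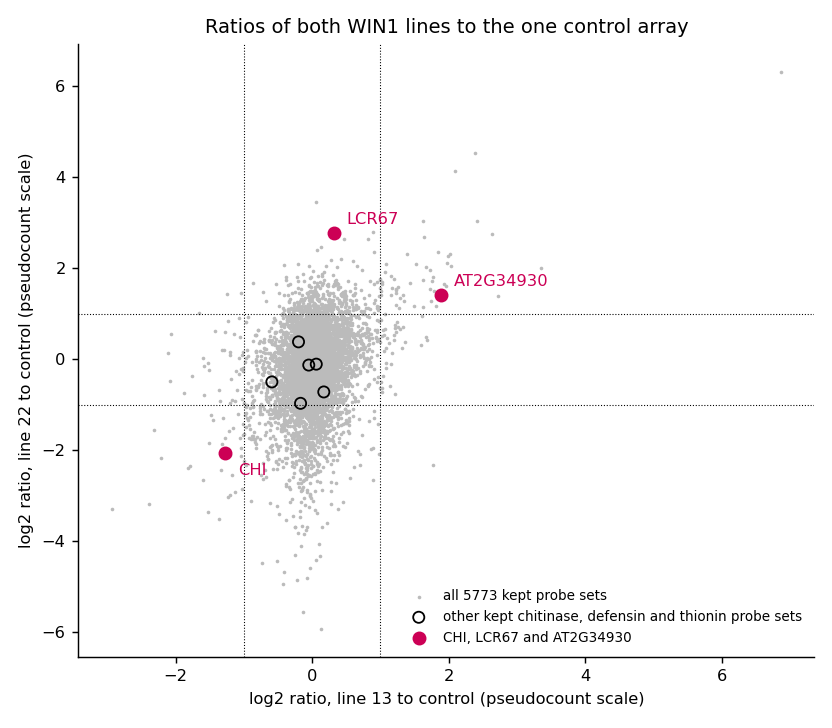
Log2 ratio to the control in line 13 (x axis) and line 22 (y axis), both on the pseudocount scale, for all 5773 kept probe sets (grey), the members among them (red) and the other kept chitinase, defensin and thionin probe sets (open circles), with dotted lines at 2-fold. CHI lies low in both lines (-1.27 and -2.06), AT2G34930 high in both (1.89 and 1.41) and LCR67 high in line 22 alone (0.32 and 2.77), while the open circles lie inside the 2-fold lines.

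CHI is the first gene of a row of chitinase genes on chromosome 2, and each gene of the row was read by the array. The 6 neighbouring genes AT2G43570 to AT2G43620 all belong to the chitinase list and were read by 7 probe sets, of which 3 were kept. Of the other 5 genes of the row, AT2G43590 had a pair of probe sets, and both were lower in both lines. Its probe set 13154_s_at read -0.4 on the array of line 13, 3.1 on that of line 22 and 28.6 on that of the control. Its probe set 13153_r_at read 11.7 on the array of line 13, 13.5 on that of line 22 and 26.9 on that of the control. The suffix of the first marks probes that similar transcripts may share, and how far CHI or another neighbour adds to its signal was not tested. On both probe sets the control was the only array above the pseudocount, so the log2 ratios (-1.34 and -1.12 for the first in lines 13 and 22, -0.59 and -0.50 for the second) are limited by it. Both probe sets stayed lower in both lines under each scaling and pseudocount tried. Neither passed limma (adjusted p = 1 for the kept 13153_r_at, and 0.554 for 13154_s_at without the filter). At an adjusted p of 0.05 limma passed 0.0346% of kept probe sets, and 0% of all probe sets without the filter. Not passing therefore says little about AT2G43590.

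The other chitinase genes of the row lay under or close to the pseudocount, so a shared direction could not be read. AT2G43580, the next neighbour of CHI, had values below 0 in both lines (-2.6 and -6.1) and 3.6 in the control, all under the pseudocount. AT2G43600 was under it on every array too, and AT2G43610 read 20.3 on the array of line 13, 15.9 on that of line 22 and 18.7 on that of the control. For AT2G43620 the values were -1.5 (line 13), 25.5 (line 22) and 11 (control), so the lines lay on either side of the control.

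Over the whole chitinase list, 8 of 14 genes matched 9 probe sets, of which 4 were kept. Of the 9, 5 were lower in both lines, 4 of 8 without CHI, against 28.2% of all probe sets on the array. Those 4 were both probe sets of AT2G43590 together with AT2G43580 and ChiC, which were each under the pseudocount on every array. Among all probe sets too dim to be kept, 23% were lower in both lines. The median log2 ratio of the 9 was -0.30 in line 13 and -0.26 in line 22, where that of all probe sets was 0 in each. Without CHI it was -0.28 in line 13 and -0.18 in line 22. The count of 5 was 7 on the deposited values without scaling, where 59.7% of all probe sets were lower in both lines. It was 3 where a floor replaced the pseudocount, with 22.9% of all probe sets, and 5 under the other scalings and pseudocounts, with 24.3% to 28.2%. Outside the row, AT4G01700 had log2 ratios of -0.20 and 0.38, and ChiC (AT4G19810), a class V chitinase, was under the pseudocount on every array.

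The other measured defensins did not follow LCR67. LCR69, also called PDF2.2, read 707.6 on the array of line 13, 373.7 on that of line 22 and 625.9 on that of the control, log2 ratios of 0.17 and -0.72. LCR68 (PDF2.3) had 444, 419.2 and 461.9, which gave log2 ratios of -0.05 and -0.13, so its 3 arrays lay close together. LCR72 (PDF2.6) was read above the pseudocount in line 13 alone, with 57 there, a value below 0 (-13.1) in line 22 and 2.1 in the control. LCR72 was too dim to be kept. LCR67 was read in line 22 alone, so each of these 2 readings rests on a single array. PDF2.1 was below 0 on all 3 arrays. These 4 PDF2 genes lie in a row of 5 genes on chromosome 2, whereas LCR67 lies on chromosome 1.

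THI2.2 (AT5G36910), the second thionin measured, was bright enough to be kept. It read 69.3 on the array of line 13, 31.9 on that of line 22 and 80.5 on that of the control, and its log2 ratios were -0.17 and -0.97. Line 13 lay near the control and line 22 was lowest.

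Across the 12 measured chitinase, defensin and thionin genes that are not members, 6 of 13 probe sets were kept. Limma called 0 of these 6 at an adjusted p of 0.05 and 0 at an unadjusted p of 0.05, against 0.0346% and 2.23% of all kept probe sets. Without the filter it called 0 of the 13 by adjusted p, but also 0 of all 8247 probe sets, so that count was fixed in advance. By unadjusted p it called 3 of the 13, against 3.72% of all probe sets. These 3 were AT2G43580, ChiC and probe set 13154_s_at of AT2G43590, each under the pseudocount in both lines. Both line values of AT2G43580 were below 0 and had been set to 0, so its spread between the lines was 0. By size, 1 of the 13, probe set 13154_s_at, was at least 2-fold lower in both lines, against 0.715% of all probe sets, and 0 were at least 2-fold higher, against 0.618%. That 2-fold difference ended with a pseudocount at the 40th percentile (log2 ratios of -0.59 and -0.51 in lines 13 and 22) and with a floor (-0.62 in each), and with common-median scaling line 22 lay at the threshold, at -1.

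**Figure D3:**
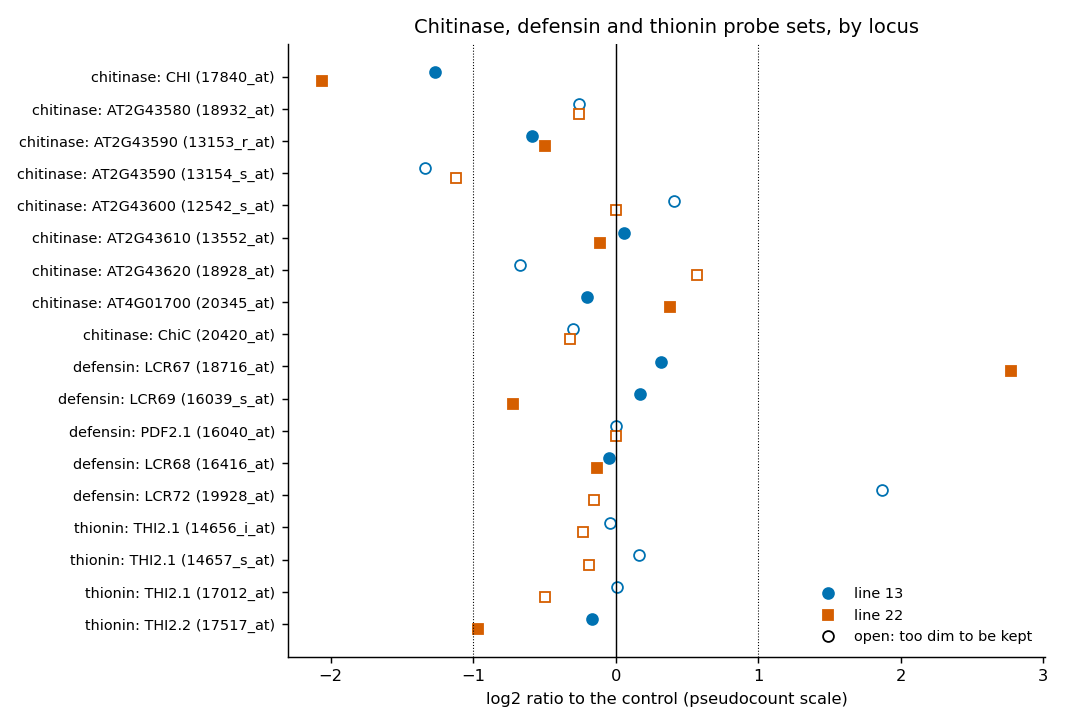
Log2 ratio to the control (x axis, pseudocount scale) in line 13 (circles) and line 22 (squares) for the 18 chitinase, defensin and thionin probe sets in order of locus within each family, open where too dim to be kept. CHI and probe set 13154_s_at of AT2G43590 lie beyond the 2-fold line on the low side in both lines, and LCR67 and LCR72 each lie beyond it on the high side in a different line.

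Few other genes of defence signalling were matched. Of 25 genes on the jasmonate and ethylene list, which held THI2.2, the only further match was EIN3, the transcription factor of the ethylene pathway. EIN3 read 930.5 on the array of line 13, 1527.9 on that of line 22 and 1032.4 on that of the control, log2 ratios of -0.15 and 0.56. Limma gave both genes an adjusted p of 1, so 0 of 2 passed in either direction, and 0 had an unadjusted p under 0.05. With 0.0346% and 2.23% of all kept probe sets passing these thresholds, nothing can be read from a count over 2 genes. None of the 14 genes on the salicylate list or the 11 on the list of leucine-rich repeat immune receptors was matched to a probe set, and these were not analysed here.

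The genes most like each member were found by the distance between pairs of log2 ratios, over the 2 lines and the 2598 kept probe sets paired with 1 gene. The 3 nearest to CHI were AT2G01460 (distance 0.235), AT3G47380 (0.253), of the pectin methylesterase inhibitor family, and AT4G30940 (0.321). Their line 22 values of -19.3, 9.2 and 5.5 lay under the pseudocount, unlike that of CHI. AT3G47380 was lower in both lines on each of its 3 probe sets, with scaled intensities of 33.3, 9.2 and 88.6 in line 13, line 22 and the control for the nearest, 13900_s_at. The 3 nearest to AT2G34930 were AT2G23440 (0.136), AT1G24230 (0.198) and AT1G03010 (0.258), whose control values of -5, 9.9 and 6.2 lay under the pseudocount, unlike that of AT2G34930.

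The 3 nearest to LCR67 were the zinc finger gene ZAT7 (0.191), the serine carboxypeptidase-like gene scpl26 (0.456) and AT4G31060 (0.565). In line 13 and the control, ZAT7 (53.5 and 33.7) and scpl26 (152.6 and 144.4) lay above the pseudocount, unlike LCR67. AT4G31060 (15.7 and -2.1) lay under it there, as LCR67 did. A second probe set of ZAT7 had a smaller log2 ratio in line 22, 0.72 against 2.65. The second probe set of scpl26 differed in the same way, with 0.64 against 2.39. Each likeness rests on 2 ratios that share 1 control array.

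**Figure D4:**
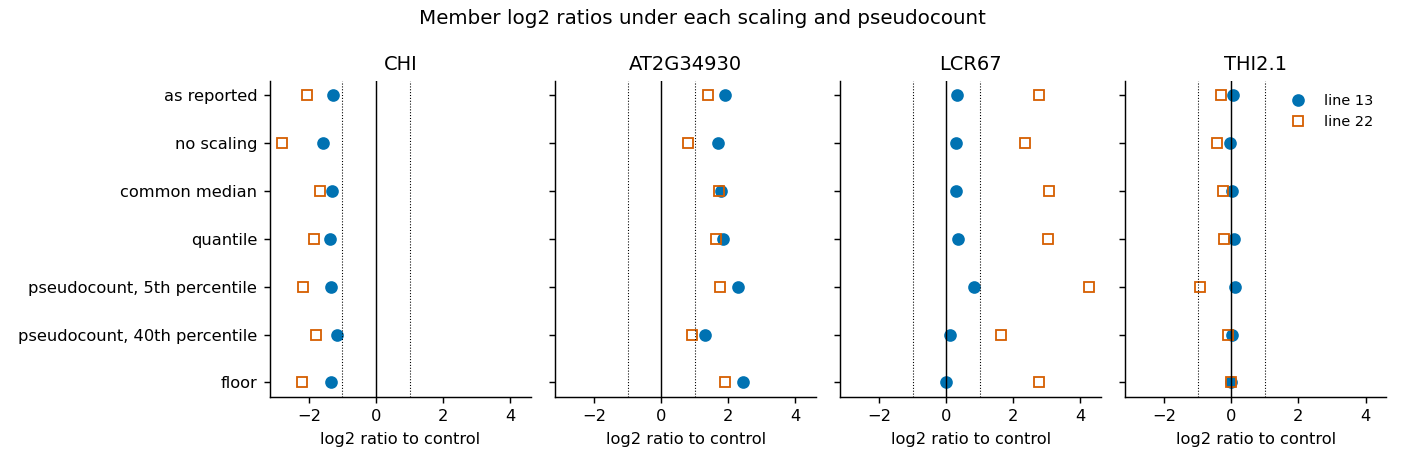
Log2 ratio to the control (x axis) of each member in line 13 (circles) and line 22 (open squares) under each scaling, pseudocount or floor (y axis), with dotted lines at 2-fold and THI2.1 as the mean of its 3 probe sets. CHI stays beyond the lower dotted line in both lines, AT2G34930 has 0.79 and 0.93 in line 22 under 2 settings, the LCR67 ratio of line 22 ranges from 1.63 to 4.27, and THI2.1 stays inside the dotted lines.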

How the data were processed

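Leaf RNA was measured on 3 arrays, from 2 WIN1 lines and 1 control. The deposited values were linear intensities, not brought to a common level, with 13.6% to 16% of an array at or below 0. The authors' summary software is not given in the sources used here. Per the file headers, the arrays shared 1 chip lot and 1 scan day.

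Each array was scaled by 1 factor (0.981 for line 13, 1.40 for line 22, 0.788 for the control) to a common mean of 176.6, trimmed by 2% at each end. Values below 0 were set to 0, the pseudocount of 18.6 (20th percentile of positive scaled values) was added and log2 was taken. Probe sets above the 30th percentile of mean log2 were kept. The whole table was fitted with limma 3.58.1 in R 4.3.3 (lmFit, eBayes with trend, two-sided, Benjamini-Hochberg), with 1 residual degree of freedom from the spread between lines. The number of arrays limits precision, and the control array, which has no replicate, is treated as no noisier than the lines. The procedure was also run on simulated data, where the noise of every array was set from the spread between the lines. That run could not test the noise of the single control or a line noisier than the other.

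Genes came from GEO's platform annotation (3794 probe sets with 1 gene, 70 with several, 4383 with none), updated through a RefSeq table of assembly TAIR10.1. Families were found from hand-written loci and the words chitinase, defensin and thionin in names. Named genes were the members, the matched genes of these lists and the 3 nearest to each kept member. A rule for further leucine-rich repeat genes by name found none. The members and lists were chosen with earlier results of these data known.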

Additional observations from a re-analysis of the deposited data

How the results depend on the processing

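All alternatives were planned, and no value changed sign where it had been called. No paired analysis was possible because the control has a single array with no number shared by both lines. Limma called 2 of the 5773 kept probe sets at an adjusted p of 0.05, and neither belonged to a member. These 2 calls became 1 with common-median scaling, a pseudocount at the 5th percentile, eBayes without trend or robust eBayes. With a pseudocount at the 40th percentile they became 4. They became 0 with quantile normalization, a floor or no filter (61, 43 and 307 at an unadjusted p of 0.05). By size, 82 probe sets (50 higher, 32 lower) passed 2-fold in both lines. Unscaled values gave 129 (22 and 107), the lower and higher pseudocount 147 and 39, a floor 146 (66 and 80), the stricter filter (50th percentile) 47, and fold thresholds of 1.5 and 3 gave 275 and 26. Without the filter they were 110 (51 and 59). Single lines gave 158 to 1372. Of the comparison of line 13 with line 22, the count of 1262 changed to 752 under the higher pseudocount and to 2691 and 451 at 1.5-fold and 3-fold. That count was 1716 without scaling, 1594 with common-median scaling, 1638 with the lower pseudocount, 1667 with a floor and 918 with the stricter filter. Quantile normalization gave 1205, and no filter gave 1416. The mean log2 ratio of AT2G34930 went from 1.65 to 1.25 without scaling, 2.03 and 1.13 with the lower and higher pseudocount and 2.17 with a floor, that of LCR67 from 1.55 to 2.55 and 0.87 with the lower and higher pseudocount, and that of THI2.1 from -0.13 to -0.42 with the lower one. Leaving out a line gave ranges of -2.06 to -1.27 for CHI, 0.32 to 2.77 for LCR67, -0.31 to 0.04 for THI2.1 and 1.41 to 1.89 for AT2G34930. With 1 line alone limma has no residual degrees of freedom and gives no count. Without scaling, the median log2 ratio of all kept probe sets moved to -0.27 in line 13 (from 0.01) and to -0.78 in line 22 (from -0.09), and common-median scaling moved it to 0.26 in line 22. Filters, thresholds and pseudocounts change counts and ratios by construction, and other causes were not tested. Low signal limits LCR67 and THI2.1.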
